A study of Mus musculus with 8 samples.

Results

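WSB/EiJ is an inbred mouse strain derived from wild house mice, and the comparison described here sets its striatal nuclei against the mean of 7 other inbred strains. A nucleus entered if it carried the authors' cluster annotation and lay in 1 of 5 clusters, named Drd1+ neuron, Drd2+ neuron, oligodendrocyte, astrocyte and macrophage, and its mouse was taken from the deposited strain call. These clusters held 5999 nuclei of WSB/EiJ and 42051 nuclei of the other strains, out of 55672 annotated nuclei in all, of which 6835 were WSB/EiJ. Each of 4 batches pooled nuclei from 1 mouse of every strain before loading, so a batch and a strain together name a mouse, and 4 WSB/EiJ mice were compared with 28 mice of A/J, C57BL/6NJ, 129S1/SvImJ, NOD/ShiLtJ, NZO/HlLtJ, CAST/EiJ and PWK/PhJ. All mice were 12 weeks old, untreated as far as the labels say, and carried no engineered allele that the labels name. The design text spells 2 of these strains otherwise, C57BL/6J and NZO/H1LtJ. The question behind the series is how nuclear RNA of the striatum varies with genetic background.

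The striatum is the input nucleus of the basal ganglia. Most of its neurons are GABAergic projection neurons, which express the dopamine receptor Drd1 and dynorphin and substance P in the direct pathway, or Drd2, Adora2a and enkephalin in the indirect pathway; in both, the receptors act on the cAMP pathway, in opposite directions. WSB/EiJ belongs to the same house mouse subspecies from which most laboratory strains largely descend, and is known for its small, lean body. It is also known for a gain of copies of R2d, a segment of chromosome 2 that holds Cwc22, a splicing factor that brings Eif4a3 to the spliceosome for assembly of the exon junction complex.

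Raw counts of unique molecular identifiers (UMIs) were summed per mouse and cluster, which gave 4 WSB/EiJ libraries and 28 others in each cluster. WSB/EiJ libraries held 1786328 to 4185336 counts in Drd1+ neurons, 1573973 to 3688535 in Drd2+ neurons, 479932 to 681738 in oligodendrocytes, 209599 to 433607 in astrocytes and 76150 to 125667 in macrophages. The summed level of each cluster's own markers in WSB/EiJ lay within or overlapped that of the other mice, and no own marker was at 0. Y-linked transcripts and Xist, which marks an inactive X chromosome, showed both sexes among the WSB/EiJ mice: batches 2 and 4 had 3891 and 3438 Y-linked counts, batches 1 and 3 had 53 and 17. The sex of the 28 other mice was not examined, and no fit had a term for sex. Of the annotated nuclei 3048 carried a barcode that also occurred in another batch, and no barcode was shared between mice of a batch. Levels are given as CPM, counts per 1000000 of the scaled library (of the unscaled library for summed markers); WSB/EiJ values are listed for batches 1 to 4, and the other 28 mice by their lowest, median and highest value. A gene was called at a Benjamini-Hochberg adjusted p under 0.05 in edgeR's quasi-likelihood test, and log2 fold changes (± SE) compare the 4 WSB/EiJ mice with the mean of the 7 other strains, each with 4 mice. The 7 strains are averaged on the log2 scale, so strains near 0 pull that mean down. A fold change is thus not a ratio of mean CPM.

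Cwc22 was the gene that separated WSB/EiJ in every cluster. In Drd1+ neurons its level was 1647, 1657, 1449 and 1501 CPM in WSB/EiJ, against 26.5, 44.05 and 67.7 CPM in the other mice, a log2 fold change of 5.14 ± 0.04 (adjusted p = 1.79e-53). Drd2+ neurons gave 1549, 1656, 1419 and 1461 CPM against 23.5, 46.6 and 64.7 (5.10 ± 0.05). The levels varied little among the 4 mice and did not approach those of any other mouse. Oligodendrocytes had 1395, 1372, 1315 and 1351 CPM against 17.7, 35.7 and 55.8 (5.29 ± 0.07), and astrocytes had 1706, 1719, 1548 and 1593 CPM against 10.6, 40.03 and 70.99 (5.27 ± 0.10). Macrophages reached 1960.0, 2015, 1963 and 2197 CPM, against 0, 31.6 and 109 CPM elsewhere (5.62 ± 0.15, adjusted p = 8.04e-56). No other gene was both called and outside the range of the other 28 mice in all 5 clusters. The gene lies at chr2:77881159-77946356 on mm10 (GRCm38). Copies of a gene cannot be told apart in these counts, and DNA copy number was not measured here.

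The 250 bases before the annotated start of Cwc22 are shown because no other gene moved as far in every cluster, and those of Fbxl7, the F-box gene described below, because its WSB/EiJ difference in macrophages differed most from that in Drd1+ neurons. Both are RefSeq GRCm38.p6 sequence, from the C57BL/6J reference and not from WSB/EiJ, on the minus strand, written 5′ to 3′ with any match to the motif CCAAT, to the motif GGGCGG or to the motif TATAAA (either strand) in capitals.
Cwc22, chr2:77946357-77946606: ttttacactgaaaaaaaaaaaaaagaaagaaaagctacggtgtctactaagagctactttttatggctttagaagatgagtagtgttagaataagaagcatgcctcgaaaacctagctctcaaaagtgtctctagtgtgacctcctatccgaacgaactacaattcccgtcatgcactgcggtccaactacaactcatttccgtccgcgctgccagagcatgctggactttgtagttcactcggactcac
Fbxl7, chr15:26895565-26895814: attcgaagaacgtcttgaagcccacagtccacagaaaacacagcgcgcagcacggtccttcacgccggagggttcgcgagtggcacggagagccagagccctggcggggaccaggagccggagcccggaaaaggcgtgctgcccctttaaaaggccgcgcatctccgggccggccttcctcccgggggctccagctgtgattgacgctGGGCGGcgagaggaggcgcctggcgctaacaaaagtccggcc
The Cwc22 window holds none of the 3 motifs and has 42.8% G and C, and the Fbxl7 window holds 1 GGGCGG, which overlaps no other match, and has 66.4%, against a median of 52.4% over 32851 promoter windows. Of those windows CCAAT occurs in 33.8%, GGGCGG in 32.7% and TATAAA in 12.4%.

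Cwc22 works with a set of splicing and decay factors. Of 25 tested genes of the exon junction complex, the spliceosome and nonsense-mediated decay, 3 were called higher in Drd1+ neurons and 0 lower, against 9.66% and 7.30% of all genes tested there, so the share called higher was near that of all genes. Those were Cwc22 itself, Smg9, a regulator of the decay kinase Smg1 (0.47 ± 0.12, adjusted p = 0.00409), and Upf3b, which links the junction complex to decay (0.23 ± 0.08, adjusted p = 0.0424). The median log2 fold change of the list was 0.01 in Drd1+ neurons, as it was over all genes. In oligodendrocytes, astrocytes and macrophages Cwc22 was the only member called. Smg9 and Upf3b lost their calls when the 28 mice were taken as 1 group. Upf3b fell to 0.08 on the log2 scale without batch 3, and its call was also lost in other fits, with adjusted p given in brackets: Upf3b (0.0711 by DESeq2, 0.0724 without the batch block, 0.136 without batch 1, 0.584 without batch 3, 0.0601 without batch 4).

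The other 5 genes were called in the same direction in all 5 clusters, out of 3235 genes tested in each: Zfp949, Zfp951, Fhit and Gm47283 were higher and AC149090.1 was lower. All 5 clusters of a mouse share its genome and batch, so they are not independent. Zfp949, a zinc finger gene, reached 173, 173, 215 and 183 CPM in oligodendrocytes against 18.2, 43.99 and 198 (1.85 ± 0.12, adjusted p = 1.77e-25). Its neighbour in level was NZO/HlLtJ, with a mean of 162 CPM, so WSB/EiJ was not alone at the high level. Zfp951, another zinc finger gene, had 32.1, 33.9, 23.5 and 32.6 CPM in Drd1+ neurons against 3.61, 17.5 and 42.1 (0.97 ± 0.13). Fhit, which encodes a diadenosine triphosphate hydrolase, had 271, 311, 336 and 268 CPM in oligodendrocytes against 30.4, 72.4 and 329 (1.70 ± 0.10, adjusted p = 7.71e-27), and only 0.35 ± 0.07 as log2 fold change in Drd1+ neurons. Here too other mice reached the WSB/EiJ range, as did NZO/HlLtJ with a mean of 322 CPM. Gm47283 ranged from 0.70 ± 0.23 in macrophages to 1.02 ± 0.17 in astrocytes. AC149090.1 had 319, 298, 353 and 388 CPM in Drd1+ neurons, inside a range of 64.4, 819 and 3548 CPM. With the 28 mice as 1 group, the calls of these 5 genes were lost except for Zfp949 in Drd1+ neurons and oligodendrocytes and Zfp951 in oligodendrocytes. In macrophages calls were also lost in single other fits, with these adjusted p: Zfp951 (0.0739 without batch 2, 0.0822 without batch 3, 0.279 without batch 4), Gm47283 (0.126 by DESeq2, 0.0734 without the batch block, 0.105 without batch 1, 0.179 without batch 2, 0.249 without batch 4), Fhit (0.0524 with DESeq2 size factors, 0.116 by DESeq2, 0.129 without the batch block, 0.432 without batch 1, 0.058 without batch 2, 0.229 without batch 4) and AC149090.1 (0.0786 without the batch block, 0.0789 without batch 1, 0.0551 without batch 2). AC149090.1 was lost in neurons and oligodendrocytes too: AC149090.1 (0.0681 without batch 1, 0.066 without batch 3) in Drd1+ neurons and AC149090.1 (0.0924 without batch 4) in oligodendrocytes.

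**Figure D1:**
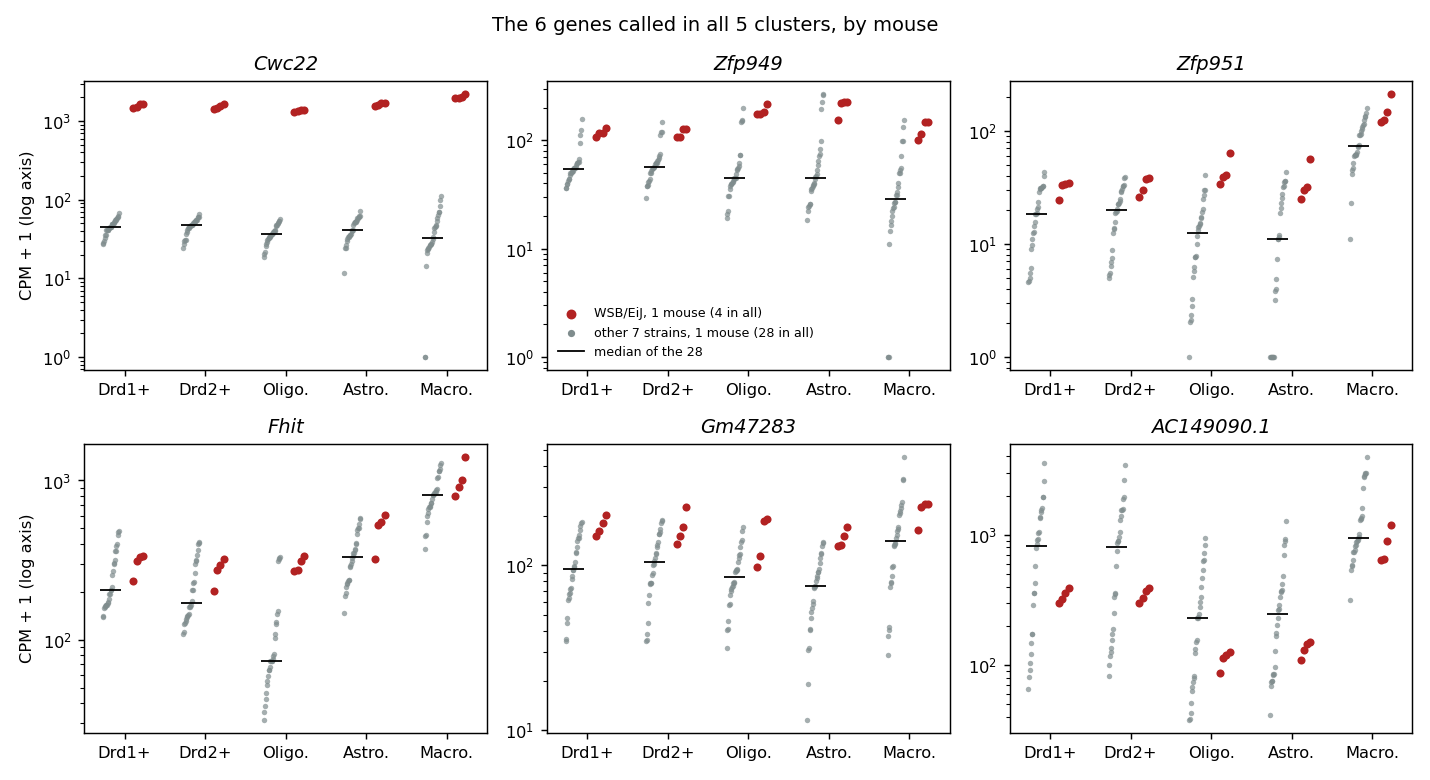
CPM + 1 (log axis) of the 6 genes called in all 5 clusters, by cluster; red points are the 4 WSB/EiJ mice, grey points the 28 other mice and bars their medians. Only for Cwc22 do the red points lie apart from the grey ones in every cluster; Zfp949, Zfp951, Fhit, Gm47283 and AC149090.1 overlap with other mice in at least 1 cluster.

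Drd1+ neurons of WSB/EiJ differed from the mean of the other strains in 2277 of 13431 genes tested (17.0%), 1297 higher (9.66%) and 980 lower (7.30%). Most differences were small: 415 called genes differed at least 2-fold. In 85 called genes (0.633% of those tested), 56 higher and 29 lower, the 4 WSB/EiJ mice also lay outside the range of all 28 others, and the genes named next are those of this kind with the largest fold changes and at least 10 CPM on the higher side. Taking the 28 mice as 1 group, so that spread between strains counts as error, left 329 calls. Leaving out batch 2 left 1458, and the other single batches up to 1874.

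Genes higher in WSB/EiJ neurons are given first. Olr1, the receptor for oxidized low density lipoprotein (chr6:129479150-129507350), had 7.73, 8.16, 16.8 and 14.6 CPM against 0, 0 and 1.35 (5.96 ± 0.35, adjusted p = 2.22e-16). The median of the other mice was 0, and none of them reached a WSB/EiJ value. Olr1 passed the count filter through its WSB/EiJ libraries, so its adjusted p is not independent of that filter. Dcn, which encodes the matrix proteoglycan decorin (chr10:97479500-97518163), had 32.8, 55.3, 35.8 and 60.4 CPM against 0, 1.96 and 5.38 (4.72 ± 0.18, adjusted p = 6.19e-22). Col15a1, a basement membrane collagen (chr4:47207655-47313167), had 31.1, 21.04, 18.4 and 18.1 CPM against 0, 1.14 and 3.69 (4.45 ± 0.21, adjusted p = 7.4e-22). All 4 WSB/EiJ mice were above every other mouse for both genes, and the lowest of them was several times the highest of the others. With at most 3.69 CPM elsewhere, Col15a1 may also have passed the count filter through its WSB/EiJ libraries. Its adjusted p may then not be independent of that filter. Col23a1, a transmembrane collagen, had 22.9, 13.8, 19.6 and 11.1 CPM against 0, 3.29 and 9.73 (2.27 ± 0.22), and Cnmd, which encodes the cartilage glycoprotein chondromodulin, had 15.9, 14.8, 12.8 and 10.4 CPM against 0.647, 2.56 and 4.305 (2.58 ± 0.20).

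Decorin is a marker of fibroblasts, so the 5 fibroblast markers of the list were read beside it. Their summed level in Drd1+ neurons was 45.4 to 77.4 CPM in WSB/EiJ and 0 to 16.8 CPM in the others, with a median of 5.80. Dcn itself (46.6 against 2.29 CPM) and Lum, encoding lumican (14.0 against 4.62 CPM), made up nearly all of it. The collagens that define fibroblasts were near 0 in both groups: Col1a1 had 0.252 against 0.228 CPM, Col1a2 0.0840 against 0.445 CPM, and Col3a1 0 against 0.0868 CPM. In the authors' fibroblast cluster, Dcn was at 325 CPM in WSB/EiJ and 1223 CPM in the others, from 7 and 284 counts. The order was the same for Lum, with 0 and 198 CPM, and the opposite for Col1a1 (510 against 215 CPM), Col1a2 (649 against 448 CPM) and Col3a1 (835 against 237 CPM), from 0 to 18 counts of each in WSB/EiJ. The CPM of single markers in this paragraph are counts over the unscaled total of all nuclei of a group.

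H2-T22, a nonclassical class I gene of the major histocompatibility complex, had 13.1, 10.7, 27.4 and 17.4 CPM against 0.5403, 2.31 and 4.51 (2.88 ± 0.21, adjusted p = 6.14e-15). It belongs to a family of near-identical copies among which reads can be split, so its value is uncertain. Clic6, of the chloride intracellular channel family, had 33.5, 37.05, 63.7 and 50.4 CPM against 0.971, 18.9 and 30.6 (1.74 ± 0.11). Its call was lost with the 28 mice as 1 group. The nearest strain was 129S1/SvImJ, with a mean of 26.01 CPM. Of the genes with provisional symbols, Gm13727 had 25.1, 23.9, 8.38 and 19.1 CPM and at most 0.336 CPM elsewhere. A830036E02Rik, a long noncoding RNA, had 45.2, 51.8, 72.1 and 57.99 CPM against 0, 6.298 and 42.2, with A/J nearest at a mean of 37.8, and 1300017J02Rik had 8.198, 8.48, 11.2 and 12.2 CPM against 0, 2.92 and 6.56. Gm13727 was not called by DESeq2 (adjusted p = 0.115), and the calls of A830036E02Rik and 1300017J02Rik were lost with the 28 mice as 1 group.

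Genes lower in WSB/EiJ neurons were of mixed function. Zfp738, a zinc finger gene, had 2.11, 1.26, 2.23 and 2.78 CPM against 5.54, 13.9 and 31.6 (-2.72 ± 0.22, adjusted p = 3.21e-13). Izumo4, of a family named for sperm-egg fusion (chr10:80702015-80705382), had 3.04, 4.71, 3.91 and 5.56 CPM against 12.5, 28.9 and 36.5 (-2.54 ± 0.15, adjusted p = 1.94e-17). Nsun7, of the RNA methyltransferase family, had 8.9, 9.73, 7.26 and 6.95 CPM against 12.9, 26.1 and 42.4 (-1.61 ± 0.13). For each of them every WSB/EiJ mouse lay below every other mouse, PWK/PhJ being the nearest strain. Otof, which encodes otoferlin, a calcium sensor of exocytosis, had 3.75, 3.45, 4.47 and 1.74 CPM against 4.96, 11.1 and 38.3 (-1.99 ± 0.35, adjusted p = 0.00022). Gm1604a had 29.98, 26.7, 31.9 and 20.8 CPM against 39.7, 112 and 149 (-1.65 ± 0.09). The other mice fell into lower and upper levels here, with 129S1/SvImJ nearest at a mean of 46.5 CPM.

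Unc5c, a receptor for the axon guidance cue netrin (chr3:141465564-141834924), had 56.2, 81.3, 80.5 and 57.3 CPM against 83.9, 146 and 209.8 (-1.11 ± 0.12, adjusted p = 2.44e-07). Galnt7, which continues mucin-type O-glycosylation, had 18.5, 22.9, 16.2 and 19.1 CPM against 28.5, 40.3 and 65.2 (-1.08 ± 0.12), and Arv1, a gene of sterol transport at the endoplasmic reticulum, had 8.9, 10.4, 9.501 and 10.8 CPM against 12.6, 17.1 and 20.8 (-0.77 ± 0.13). The gap between the groups was narrow for Unc5c and Arv1 and wider for Galnt7. Among provisional symbols, Gm9989 had 2.58, 1.88, 2.23 and 2.08 CPM against 23.6, 43.2 and 146, Gm6729 had 2.58, 4.39, 3.91 and 2.43 CPM against 6.47, 12.96 and 22.8, and Gm15997 had 5.39, 4.71, 6.15 and 9.03 CPM against 10.7, 21.8 and 38.7.

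**Figure D2:**
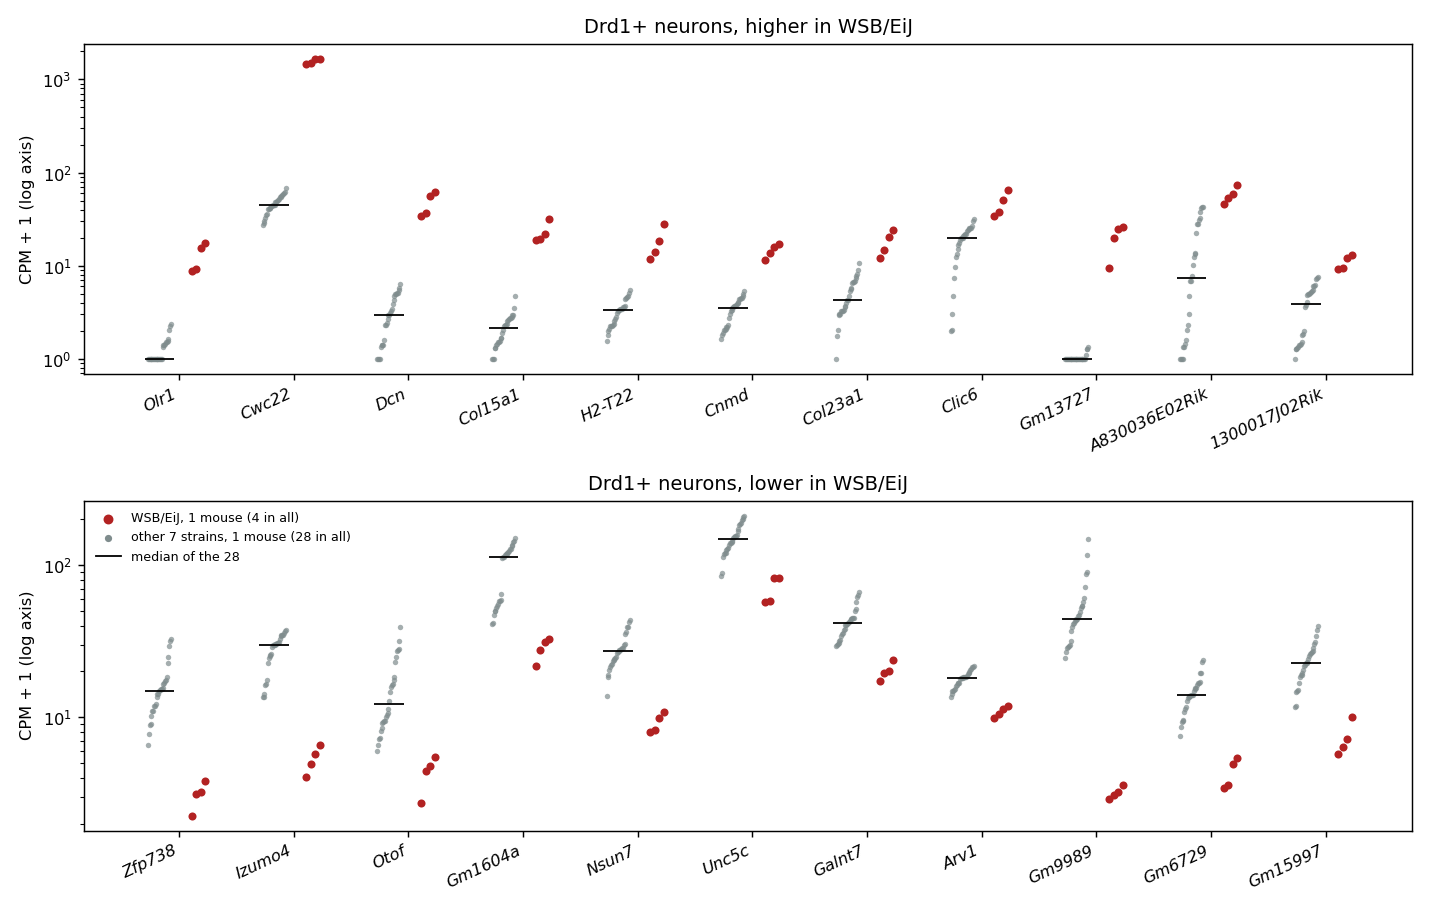
CPM + 1 (log axis) in Drd1+ neurons of the genes named there as higher (upper panel) and lower (lower panel) in WSB/EiJ; red points are the 4 WSB/EiJ mice, grey points the 28 other mice and bars their medians. The red points of each gene lie outside the grey range, which is how the genes were chosen; Cwc22 and Dcn have a wide gap, Clic6, A830036E02Rik, Unc5c and Arv1 a narrow one.

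Genes of projection neuron function were read in lists by role. Of 20 tested receptors and peptides, 2 were called higher and 3 lower in Drd1+ neurons, against 9.66% and 7.30% of all genes, with a list median of -0.09 against 0.01 over all genes. Drd1 itself had 229, 193, 340.3 and 299 CPM against 166, 210.1 and 333 (0.26 ± 0.05, adjusted p = 0.00042), and Oprk1, the kappa opioid receptor, had 52.9, 53.1, 61.5 and 77.1 CPM against 19.8, 44.4 and 70.3 (0.51 ± 0.11). Pdyn, the precursor of dynorphin, which is that receptor's ligand, had 33.3, 34.2, 59.8 and 30.2 CPM against 31.2, 55.1 and 113 (-0.58 ± 0.13, adjusted p = 0.00291). For each of these 3 genes 1 WSB/EiJ mouse lay just outside the range of the other mice and the rest inside it. Oprm1, the mu opioid receptor (-0.44 ± 0.13), and Grm4, a presynaptic glutamate receptor (-0.41 ± 0.10), were lower. The calls of Drd1 (adjusted p = 0.337), Oprk1 (0.143), Pdyn (0.192) and Oprm1 (0.345) were lost with the other mice as 1 group. That of Grm4 held. Oprm1 was at -0.26 without batch 1, and of the genes named here these lost their calls in single other fits, with the adjusted p in brackets: Drd1 (0.0574 without the batch block), Oprm1 (0.282 without batch 1, 0.0873 without batch 3) and Grm4 (0.0555 without the batch block).

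Between dopamine receptors and cAMP, 0 of 24 tested genes were called higher and 6 lower in Drd1+ neurons, against 9.66% and 7.30% of all genes, and the list median was -0.08. Rgs9, which speeds G protein shut-off, had 746, 692, 720.4 and 683 CPM against 605, 878 and 948 (-0.24 ± 0.05, adjusted p = 0.00143). Pde10a, the striatal phosphodiesterase, had 2551, 2703, 2580.0 and 2546 CPM against 2108, 3005 and 3784 (-0.22 ± 0.06). These values lay in the lower part of the other mice's range, not below it. Pde4b (-0.46 ± 0.12) and Ptpn5, the striatum-enriched tyrosine phosphatase (-0.27 ± 0.07), were also lower, as were Prkacb and Pde1b. Of 20 transcription factors of projection neurons, 0 were higher and 6 lower, against 9.66% and 7.30% of all genes, with a median of -0.14: Bcl11b, needed for their differentiation, had 335, 356, 347 and 348 CPM against 349.9, 414 and 468 (-0.25 ± 0.06), and Satb1 (-0.85 ± 0.16), Mef2d, Foxp2, Foxp1 and Rxrg were the others. The calls of Rgs9, Pde10a, Pde4b, Ptpn5, Satb1, Mef2d and Foxp2 were lost with the other mice as 1 group. Their adjusted p there ranged from 0.125 for Mef2d to 0.282 for Pde10a, and the call of Bcl11b held. Of the genes named in this cluster's lists here, these lost their calls in single other fits, with the adjusted p in brackets: Pde10a (0.077 without the batch block, 0.105 without batch 1, 0.0886 without batch 2), Ptpn5 (0.134 without batch 1), Mef2d (0.0867 without batch 2, 0.067 without batch 3, 0.0905 without batch 4) and Foxp2 (0.17 without the batch block, 0.0841 without batch 1, 0.133 without batch 2, 0.0678 without batch 4); Prkacb, Pde1b, Foxp1 and Rxrg were not followed through these fits.

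Adhesion molecules of the synapse were called lower in 10 of 34 tested genes and higher in 1, Lrfn2, against 7.30% and 9.66% of all genes, with a list median of -0.03. Nrxn3, a presynaptic neurexin, had 5532, 5199, 5515 and 4966 CPM against 5119, 6508 and 8322 (-0.31 ± 0.05, adjusted p = 1.63e-06), and Cntnap4, of the same superfamily, had 1.64, 1.88, 0.559 and 2.43 CPM against 1.398, 7.16 and 14.2 (-1.93 ± 0.30). Voltage-gated channels were lower in 6 of 39 and higher in 0, among them Kcnq3, a subunit of the M-current (-0.28 ± 0.06), and Cacna1d, an L-type calcium channel (-0.23 ± 0.05), against the same 7.30% and 9.66%. Among glutamate receptors Grik5 was higher and Gria4 lower, and the GABA-A receptor subunit Gabrd was lower. Of 19 clock genes 3 were higher (Per3, 0.52 ± 0.10, Hlf and Nr1d2) and 0 lower, and of 16 immediate early genes 0 were higher and 2 lower, Homer1 (-0.46 ± 0.10) and Dusp1, also against 9.66% and 7.30%. The median of the immediate early genes was -0.42 against 0.01 over all genes, the lowest of the lists in this cluster. The 14 not called ranged from -0.82 to 0.34. The median of this list was -0.20 in Drd2+ neurons, -0.22 in oligodendrocytes (5 genes tested), -0.21 in astrocytes (6 tested) and 0.10 in macrophages (3 tested). Among insulin and energy sensing genes Esrrg (0.33 ± 0.06) and Foxo3 were higher and Foxo1 (-0.41 ± 0.06) was lower. Identity genes of microglia and macrophages gave 2 higher, Lyn (0.95 ± 0.14) and Aif1, and 2 lower, Mef2a (-0.21 ± 0.05) and Selplg (-1.05 ± 0.33), of 16 tested, against 9.66% and 7.30%, with a median of 0.08. Aif1, a microglial marker, had 6.79, 3.77, 3.91 and 6.598 CPM against 0.5403, 1.72 and 4.63 (1.43 ± 0.28), while the summed macrophage markers overlapped, with 73.9 to 94.6 CPM in WSB/EiJ and 58.9 to 104 CPM in the others. Of the 44 list members that the naming rule chose in Drd1+ neurons beside Cwc22, 37 lost their calls with the 28 mice as 1 group; those that held included Aif1, Bcl11b, Cntnap4, Foxo1, Grm4 and Homer1. Of the genes named in this cluster's lists here, these lost their calls in single other fits, with the adjusted p in brackets: Lrfn2 (0.168 without batch 1, 0.0513 without batch 2), Grik5 (0.0625 without batch 2, 0.104 without batch 4), Gabrd (0.182 without the batch block, 0.0512 without batch 4), Hlf (0.167 without batch 2, 0.194 without batch 4), Nr1d2 (0.28 without batch 2, 0.0912 without batch 3, 0.359 without batch 4), Homer1 (0.0536 without the batch block, 0.0634 without batch 2), Dusp1 (0.191 without batch 1, 0.137 without batch 2), Foxo3 (0.0596 without the batch block), Mef2a (0.157 without the batch block, 0.0771 without batch 4) and Selplg (0.23 without batch 1, 0.078 without batch 2).

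In Drd2+ neurons 1959 of 12799 genes tested (15.3%) were called, 1093 higher (8.54%) and 866 lower (6.77%), 337 of them at least 2-fold. The 4 WSB/EiJ mice lay outside the range of the others in 86 called genes (0.672%). The genes named by size here were Cwc22, Tmem181a, Olr1, Dcn, Cnmd, Col15a1, Zfp738, Izumo4, Nsun7, Gm1604a, Gm13727 and Gm9989; both neuron clusters come from the same mice. Olr1 had 9.83, 8.02, 17.8 and 16.3 CPM against 0, 0 and 0.981 (6.41 ± 0.36), and Dcn had 22.3, 50.5, 29.9 and 68.1 CPM against 0, 1.4 and 6.399 (4.59 ± 0.25). Cnmd had 18.1, 14.04, 15.9 and 15.1 CPM against 0.541, 2.29 and 4.38 (2.76 ± 0.20). No other mouse reached the lowest WSB/EiJ value of these genes, which is how they were chosen. The summed fibroblast markers, mostly Dcn, were 37.4 to 86.5 CPM in WSB/EiJ and 0 to 14.8 CPM in the others. Col15a1 had 13.01, 14.4, 7.01 and 9.08 CPM against 0, 1.16 and 4.62 (3.10 ± 0.30). Tmem181a, a transmembrane protein gene with near-identical copies and thus uncertain, had 22.04, 21.1, 21.7 and 13.2 CPM against 22.1, 114 and 252 (-2.27 ± 0.10), the highest WSB/EiJ value touching the lowest of the others. Zfp738 (-3.55 ± 0.30), Nsun7 (-2.23 ± 0.18), Izumo4 (-2.49 ± 0.19) and Gm1604a (-1.72 ± 0.09) were lower. With the 28 mice as 1 group 377 calls were left, and without batch 2 1298; Gm13727 was not called by DESeq2 (adjusted p = 0.155).

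The same lists were read in Drd2+ neurons. Between dopamine receptors and cAMP 1 of 24 tested genes was higher, Gnb5 (0.21 ± 0.06), and 5 were lower, Rgs9 (-0.24 ± 0.06), Pde4b, Pde10a, Ptpn5 and Itpr1, against 8.54% and 6.77% of all genes, with a median of -0.08 against 0.01. Pde4b had 931, 1083, 1383 and 1003 CPM against 1105, 1452 and 2609 (-0.47 ± 0.10, adjusted p = 0.00155). Of 18 transcription factors, Meis1 was higher (0.40 ± 0.11) and Satb1, Bcl11b and Ikzf2 were lower, against the same 8.54% and 6.77%. Channels gave 0 higher and 6 lower of 39, with Kcnj3, an inward rectifier subunit, at 6.64, 5.01, 3.19 and 2.27 CPM against 3.02, 11.03 and 30.6 (-1.22 ± 0.27). Synaptic adhesion gave 1 higher, Slitrk3, and 7 lower of 34, including Lrrc4c (-0.32 ± 0.05), where 8.54% and 6.77% of all genes were called. The AMPA receptor subunit Gria4 had 422, 444, 334 and 422 CPM against 389.7, 619 and 729 (-0.50 ± 0.05, adjusted p = 4.51e-10), the WSB/EiJ mouse of batch 3 lying below that range and the others in its lower part. Receptors and peptides gave Oprk1 higher (0.52 ± 0.14) and Grm4 and Htr4 lower of 21; Drd2, Adora2a and Penk were not called. With the 28 mice as 1 group, 33 of the 38 list members that the rule chose in this cluster beside Cwc22 lost their calls; those that held included Aif1, Bcl11b, Cntnap4 and Foxo1. Of the genes named in this cluster's lists here, these lost their calls in single other fits, with the adjusted p in brackets: Gnb5 (0.0672 without batch 2, 0.0828 without batch 3, 0.198 without batch 4), Pde10a (0.0873 without the batch block, 0.119 without batch 1, 0.113 without batch 2), Ptpn5 (0.237 without batch 1, 0.137 without batch 2), Meis1 (0.0945 without batch 3), Ikzf2 (0.07 by DESeq2, 0.0634 without the batch block, 0.122 without batch 2, 0.0664 without batch 3, 0.25 without batch 4), Slitrk3 (0.0797 without batch 1, 0.0782 without batch 2, 0.0896 without batch 3), Oprk1 (0.104 without batch 2, 0.0722 without batch 4), Grm4 (0.0561 without batch 2) and Htr4 (0.129 without batch 3); Itpr1 was not followed through these fits.

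Oligodendrocytes, the myelinating glia, had 921 of 9082 genes called (10.1%), 532 higher (5.86%) and 389 lower (4.28%), 227 of them at least 2-fold; in 36 (0.396%) the WSB/EiJ mice lay outside the range of the others. Mylk, myosin light chain kinase (chr16:34745199-35002436), had 192, 198, 204 and 191 CPM against 0, 4.32 and 155 (4.75 ± 0.15, adjusted p = 5.52e-48). Of the other strains 129S1/SvImJ came near with a mean of 139.7 CPM, while the median mouse was close to 0. Pip5k1b, which makes the membrane lipid PIP2 (chr19:24294794-24555872), had 137, 156, 123 and 139.8 CPM against 4.27, 17.9 and 67.6 (2.90 ± 0.18, adjusted p = 3.7e-18). Itih5, a hyaluronan-binding matrix gene, had 67.1, 41.8, 134 and 105 CPM against 0, 13.04 and 38.7 (2.56 ± 0.23), and Grm8, a metabotropic glutamate receptor, had 65.6, 99.95, 72.2 and 79.9 CPM against 8.97, 17.04 and 37.9 (2.23 ± 0.18). Itih5 was higher in batches 3 and 4 than in batches 1 and 2, but above the other mice in all 4, as its choice required. Gm44662 had 83.5, 54.5, 74.4 and 63.2 CPM against 6.08, 17.5 and 35.9. With the 28 mice as 1 group 190 calls were left, without batch 4 601, and the named genes of this paragraph held.

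Genes lower in oligodendrocytes of WSB/EiJ included abundant ones. Nbas, of retrograde Golgi transport (chr12:13269101-13637380), had 109, 105, 70.1 and 123 CPM against 347, 687 and 938 (-2.66 ± 0.10, adjusted p = 4.39e-41). Tmem117 (chr15:94629185-95096097) had 167, 144, 196 and 163 CPM against 214, 591 and 776 (-1.64 ± 0.10, adjusted p = 2.02e-27). No other mouse was as low in either gene, which is how they were chosen. A/J was nearest for Nbas with a mean of 392 CPM. Npat, an activator of histone genes, had 46.2, 70.9, 46.8 and 43.3 CPM against 104, 157 and 201 (-1.59 ± 0.13), and Adamtsl4, a matrix gene, had 20.9, 1.82, 10.6 and 13.3 CPM against 47.3, 102 and 194 (-2.98 ± 0.23). Zfp738 was at 0, 1.82, 4.25 and 1.66 CPM against 10.4, 21.4 and 61.4 (-3.53 ± 0.46), and Gm816 at 4.47, 0, 0 and 6.66 CPM against 12.4, 60.7 and 219, from 7 counts in WSB/EiJ.

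Myelin and oligodendrocyte genes moved in both directions: of 30 tested, 3 were higher and 5 lower, against 5.86% and 4.28% of all genes, with a median of -0.02 against 0.00. Ptgds, prostaglandin D synthase, had 2975, 2085, 10350.0 and 4008 CPM against 519, 1783 and 5663 (1.26 ± 0.13, adjusted p = 1.97e-07). Trf, transferrin, the iron carrier, had 2101, 1617, 3135 and 2483 CPM against 1115, 1570.0 and 3121 (0.51 ± 0.06, adjusted p = 4.91e-11). Batch 3 was the highest WSB/EiJ mouse in both, and only there did WSB/EiJ exceed all other mice. Mobp, a myelin protein, was slightly higher (0.20 ± 0.07). Bcas1, a gene of early myelinating cells, had 546, 483, 359 and 463 CPM against 474, 683 and 869 (-0.56 ± 0.07), and Qdpr, dihydropteridine reductase, had 237, 202, 153 and 158 CPM against 218, 315 and 554 (-0.81 ± 0.10). Sox10, the lineage's transcription factor (-0.38 ± 0.09), Ugt8a, which makes galactosylceramide (-0.28 ± 0.07), and Gjc3 were lower as well. Mobp fell to 0.06 without batch 3, and of the genes named here these lost their calls in single other fits, with the adjusted p in brackets: Mobp (0.0931 by DESeq2, 0.129 without the batch block, 0.637 without batch 3, 0.0966 without batch 4), Sox10 (0.32 without the batch block) and Ugt8a (0.102 without batch 3, 0.148 without batch 4); Gjc3 was not followed through these fits.

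Synaptic adhesion genes in oligodendrocytes gave 7 higher and 3 lower of 24 tested, against 5.86% and 4.28% of all genes, with a median of 0.12. Tenm2, a teneurin, had 876, 745, 901 and 907 CPM against 84.4, 476 and 1373 (1.11 ± 0.08, adjusted p = 1.4e-18). All 4 values lay inside the range of the other mice. Among glutamate receptors Gria4 (0.86 ± 0.09) and Grik4 (1.15 ± 0.17) were higher and Grik1 was lower, and among insulin and energy sensing genes Cpt1c and Pik3r1 were lower. Of 33 list members that the rule chose in oligodendrocytes beside Cwc22, 27 lost their calls with the 28 mice as 1 group; those that held included Bcas1, Meis2, Qdpr and Trf. Of the genes named in this cluster's lists here, these lost their calls in single other fits, with the adjusted p in brackets: Grik1 (0.253 without batch 2, 0.219 without batch 3), Cpt1c (0.0532 by DESeq2, 0.124 without the batch block, 0.121 without batch 1, 0.0582 without batch 3, 0.192 without batch 4), Pik3r1 (0.105 without the batch block, 0.0912 without batch 1, 0.0879 without batch 2, 0.182 without batch 3) and Meis2 (0.0526 without the batch block, 0.063 without batch 4).

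Astrocytes, which clear glutamate and supply metabolites, had 269 of 8207 genes called (3.28%), 160 higher (1.95%) and 109 lower (1.33%), 112 at least 2-fold, and 14 (0.171%) with the WSB/EiJ mice outside the range of the others. Syt10, a synaptotagmin (chr15:89773714-89841980), had 47.8, 38.7, 36.01 and 52.6 CPM against 0, 0 and 13.9 (4.52 ± 0.44, adjusted p = 7.96e-14). Plpp4, a phospholipid phosphatase, had 42.8, 87.1, 61.7 and 33.5 CPM against 0, 7.03 and 19.7 (3.13 ± 0.31), and Spats2l had 111, 133, 87.5 and 59.8 CPM against 21.1, 36.7 and 52.2 (1.44 ± 0.18). The median of the other mice was 0 for Syt10. That no other mouse reached the lowest WSB/EiJ value of these 3 genes follows from how they were chosen. Syt10 and Plpp4 entered the fit through their WSB/EiJ libraries, so their adjusted p is not independent of that entry. Sgcd, delta-sarcoglycan, had 189, 208, 144 and 146 CPM against 0, 83.4 and 138 (1.11 ± 0.15), and its call was lost with the 28 mice as 1 group (adjusted p = 0.0615). Gm20300 had 32.7, 50.8, 41.1 and 38.3 CPM against 0, 11.5 and 24.9. With the 28 mice as 1 group 56 genes were called in astrocytes, without batch 4 159 and without batch 2 163.

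Slc7a11, the cystine and glutamate antiporter (chr3:50364936-50499087), was lower in astrocytes, at 52.8, 70.1, 82.3 and 98.1 CPM against 155, 344 and 678 (-2.17 ± 0.16, adjusted p = 4.42e-17). Ccdc141 had 27.7, 45.95, 30.9 and 28.7 CPM against 116, 169.5 and 243 (-2.37 ± 0.19, adjusted p = 3.5e-18). Both were clearly below all other mice, and lying outside that range was part of how they were chosen. Gm41836 had 0 counts in the 4 WSB/EiJ mice together and 314 in the others, at least 16.3-fold lower by the limit of 3 counts over the group. C4b, a complement component, was also lower, with 22.6, 26.6, 46.3 and 59.8 CPM against 23.7, 113 and 214 (-1.59 ± 0.21, adjusted p = 4.3e-09). Of 30 tested genes of astrocyte transport and metabolism, Mfge8, a secreted bridging protein of phagocytosis, was higher (0.73 ± 0.09, adjusted p = 3.76e-09) and Aqp4, the water channel, lower (-0.44 ± 0.12, adjusted p = 0.024); 28 were not called and the list median was -0.01, where 1.95% of all genes were higher and 1.33% lower. The clock genes Npas2 (0.83 ± 0.19) and Per1 (0.82 ± 0.22) were higher, 2 of 18 tested. Of 13 list members that the rule chose in astrocytes beside Cwc22, C4b, Mfge8 and Npas2 held with the 28 mice as 1 group and 10 did not. Of the genes named in this cluster's lists here, these lost their calls in single other fits, with the adjusted p in brackets: Aqp4 (0.301 without batch 1, 0.172 without batch 2, 0.112 without batch 4), Npas2 (0.0689 without batch 4) and Per1 (0.177 without batch 2, 0.17 without batch 3, 0.0625 without batch 4).

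The cluster the authors call macrophage carries microglial markers. It had 239 of 3858 genes called (6.19%), 162 higher (4.20%) and 77 lower (2.00%), 92 at least 2-fold, and 13 (0.337%) with the WSB/EiJ mice outside the range of the others. Fbxl7, which encodes the substrate-binding subunit of a ubiquitin ligase (chr15:26540454-26895564), had 718, 482, 454 and 494 CPM against 0, 8.72 and 317 (4.86 ± 0.27, adjusted p = 1.62e-24). NOD/ShiLtJ was the only strain near it, with a mean of 234 CPM. Cpd, carboxypeptidase D, had 226, 295, 162 and 198 CPM against 11.5, 50.7 and 111 (2.00 ± 0.29, adjusted p = 5.35e-08). Golim4, a Golgi membrane protein gene, had 205, 206, 259.5 and 136 CPM against 23.7, 61.99 and 124 (1.63 ± 0.26), and Pard3b, a polarity gene, had 914, 1071, 925 and 1037 CPM against 105, 382 and 857 (1.44 ± 0.13). The WSB/EiJ mice lay above the others in each, as the choice of genes required, by a small margin for Pard3b and Golim4. With the 28 mice as 1 group 30 genes were called in macrophages, and without single batches 144 (batch 4) to 183.

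P3h2, a collagen prolyl 3-hydroxylase (chr16:25959284-26105813), had 0 counts in macrophages of the 4 WSB/EiJ mice and 1499 in the others, at least 59.3-fold lower by the limit of 3 counts over the group; the other mice had 41.3, 534 and 898 CPM. CAST/EiJ was the lowest of the other strains, with a mean of 78.5 CPM. Cacnb2, a calcium channel subunit, had 103, 157, 129.8 and 160.5 CPM against 279, 628 and 949.8 (-2.05 ± 0.19, adjusted p = 3.53e-15). Cd300c2, a myeloid receptor, had 30.8, 68.8, 97.3 and 49.4 CPM against 107, 218 and 525 (-1.88 ± 0.28). Neither overlapped the other mice, as the choice of genes required, though the highest WSB/EiJ value of Cd300c2 came close to the lowest of them. Mfhas1 and the ubiquitin ligase gene Rnf41 rested on 4 counts each in WSB/EiJ, with 10.3, 9.83, 32.4 and 0 CPM against 43.7, 100.2 and 179.9 and 20.5, 19.7, 0 and 0 CPM against 26.3, 69.6 and 124. Rnf41 lost its call without batch 4 (adjusted p = 0.0579).

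Identity genes of microglia and macrophages were called higher in 4 of 28 tested and lower in 0, against 4.20% and 2.00% of all genes, with a median of 0.19 against 0.01 over all genes. Selplg, a selectin ligand, had 1293, 1406, 3617 and 2000.0 CPM against 659, 1153 and 2454 (0.65 ± 0.11, adjusted p = 2.13e-06). Csf1r, the survival receptor of microglia (0.33 ± 0.10, adjusted p = 0.032), P2ry12, the receptor for nucleotides released by injured cells (0.36 ± 0.11, adjusted p = 0.0331), and Tgfbr1 (0.27 ± 0.09, adjusted p = 0.0395) were higher by less. In all 4 genes some WSB/EiJ mice lay inside the range of the others, and all 4 lost their calls with the 28 mice as 1 group. Of the genes named in this cluster's lists here, these lost their calls in single other fits, with the adjusted p in brackets: Selplg (0.13 without the batch block), Csf1r (0.193 without the batch block, 0.09 without batch 1, 0.0525 without batch 2, 0.0506 without batch 3, 0.282 without batch 4), P2ry12 (0.0555 by DESeq2, 0.545 without the batch block, 0.265 without batch 1, 0.228 without batch 4) and Tgfbr1 (0.134 without the batch block, 0.24 without batch 1, 0.162 without batch 3, 0.178 without batch 4). In insulin and energy sensing, Esrrg (2.17 ± 0.34) and Pik3r1 (0.57 ± 0.13) were higher. Of 14 tested genes of astrocyte transport and metabolism 2 were called higher and 0 lower, against 4.20% and 2.00% of all genes. Slc39a12, a zinc transporter of astrocytes, had 257, 138, 227 and 247 CPM against 7.39, 20.4 and 162 (2.90 ± 0.35, adjusted p = 1.44e-10), and Glul, glutamine synthetase, had 975, 1042, 1054 and 753 CPM against 248, 461 and 798 (1.00 ± 0.13). The other 12 ranged from -1.34 to 0.13 on the log2 scale, and the list median was -0.03. The summed astrocyte markers of this cluster were 608 to 888 CPM in WSB/EiJ and 439 to 5629 CPM, median 879.7, in the others; their part in these results was not tested.

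**Figure D3:**
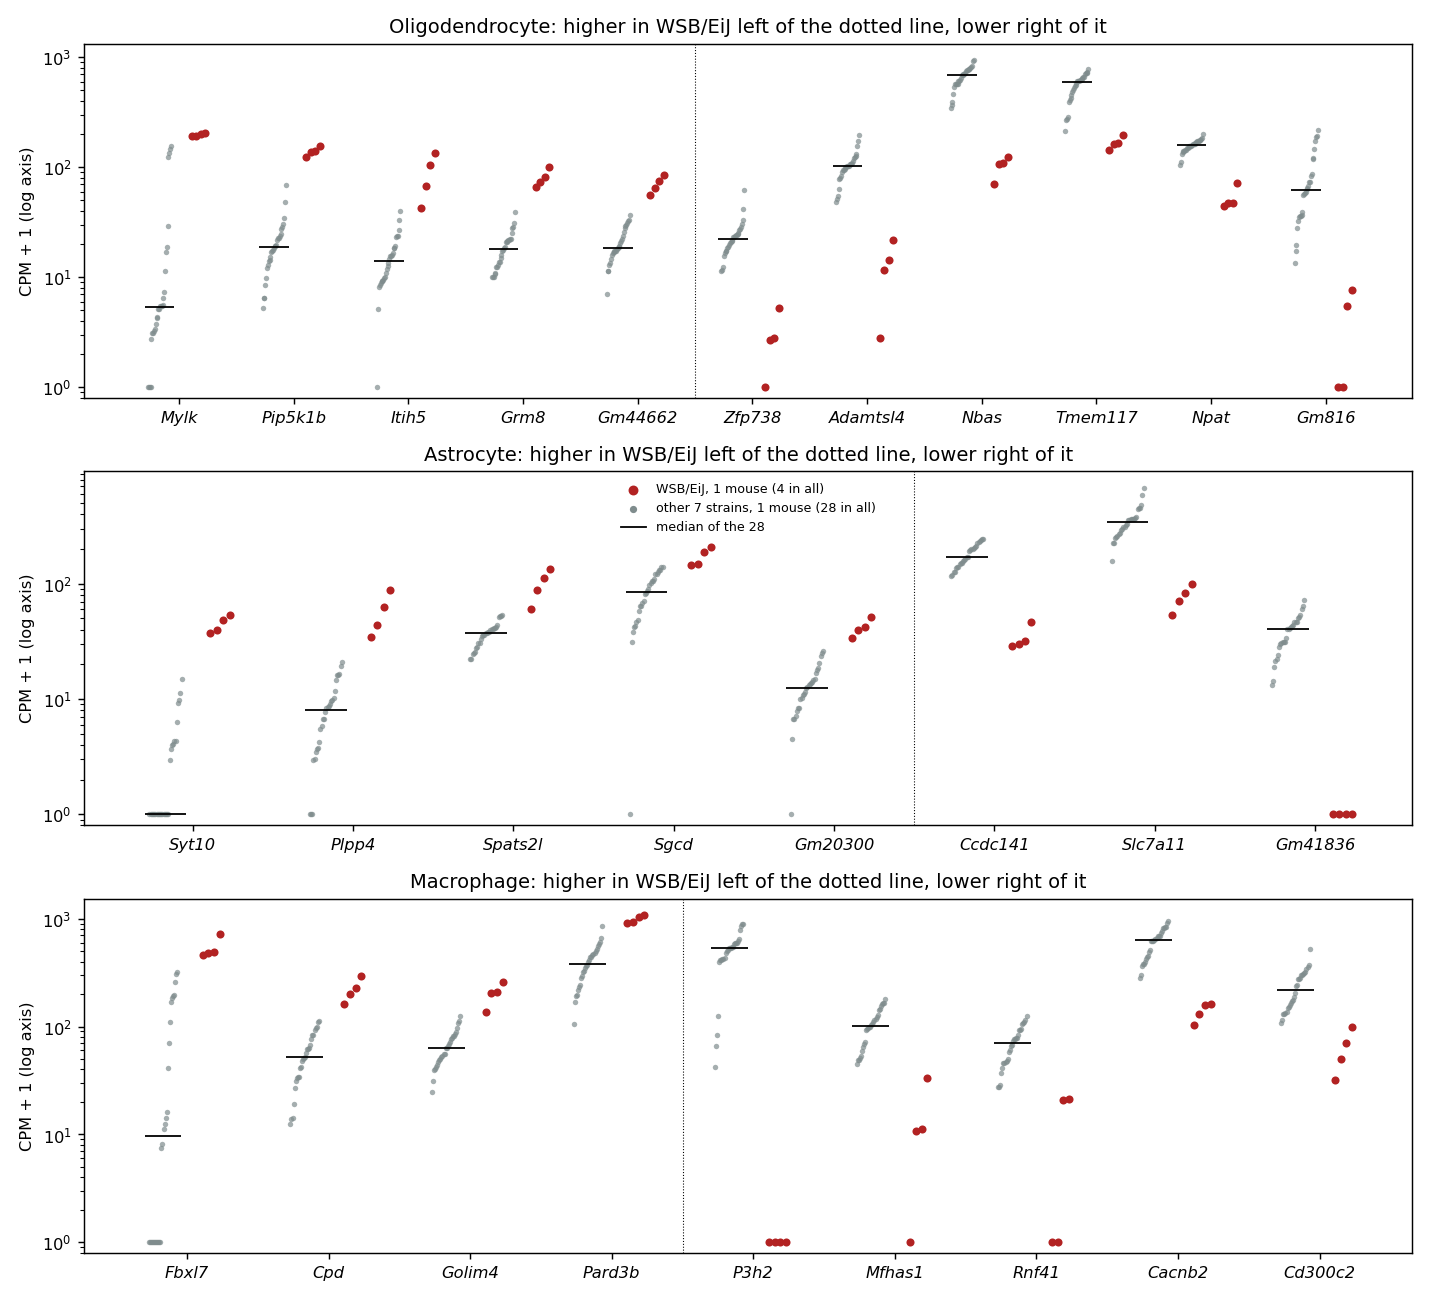
CPM + 1 (log axis) of the genes named as higher (left of the dotted line) and lower (right of it) in oligodendrocytes, astrocytes and macrophages, without Cwc22; red points are the 4 WSB/EiJ mice, grey points the 28 other mice and bars their medians. For Mylk and Fbxl7 the grey points spread from 0 to near the red ones; Gm41836 in astrocytes and P3h2 in macrophages have all 4 red points at 0 CPM.

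**Figure D4:**
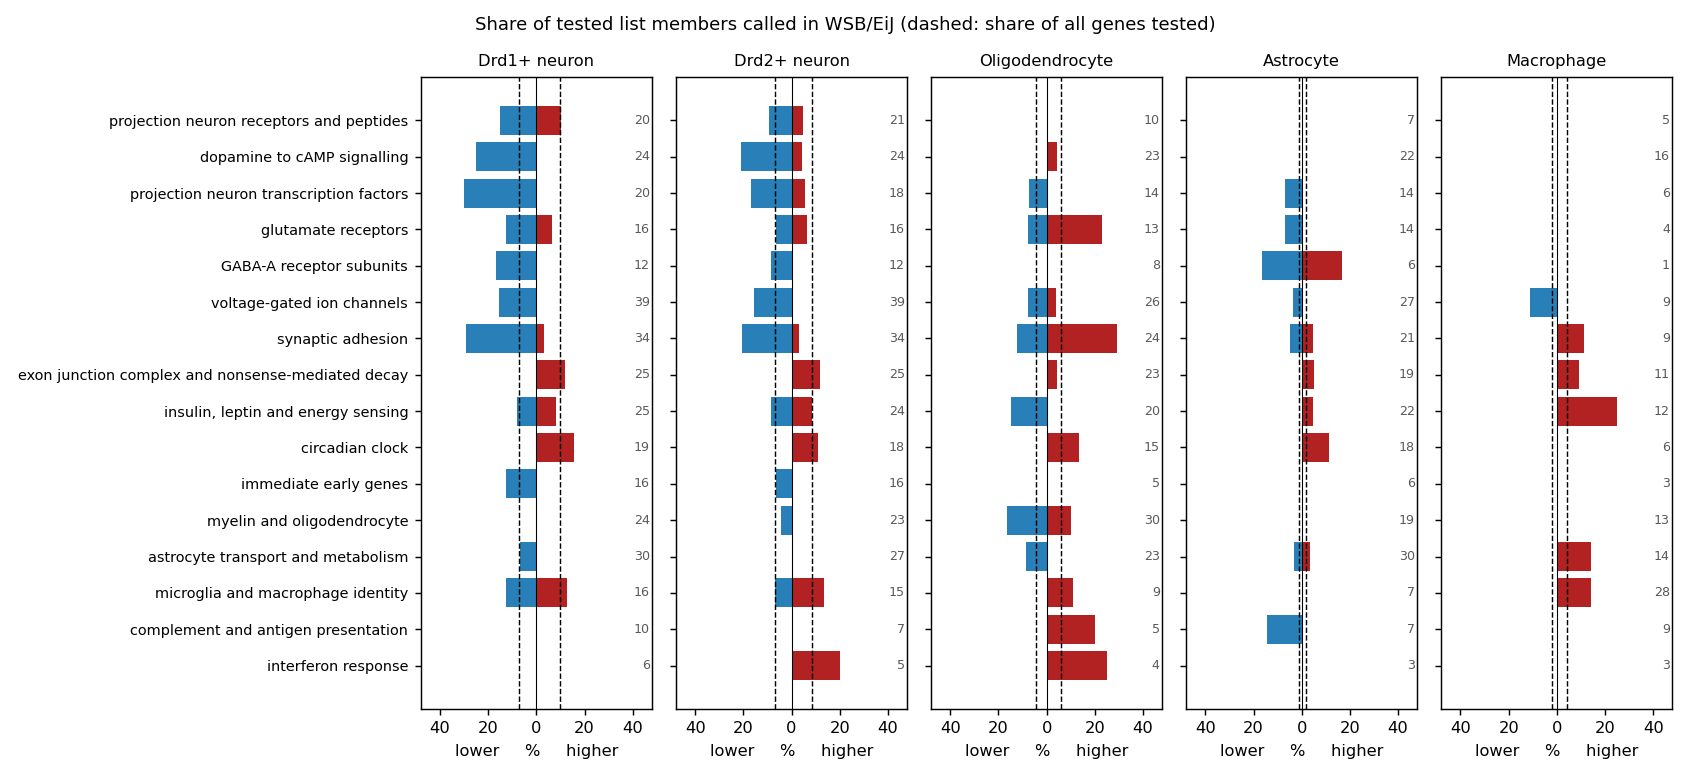
Share (percent) of the tested members of each of 16 gene lists that were called higher (red) or lower (blue) in WSB/EiJ, by cluster; grey numbers give the members tested and dashed lines the share over all genes tested. In Drd1+ neurons the bars of dopamine to cAMP signalling (6 of 24), transcription factors (6 of 20) and synaptic adhesion (10 of 34) reach furthest to the lower side, past 7.30% of all genes. Of the followed genes in these Drd1+ neuron bars, only Bcl11b and Cntnap4 held their calls with the other mice as 1 group. Lists with few tested members move far with 1 gene.

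Whether a gene's WSB/EiJ difference varied between cell types was tested directly, as the interaction of strain and cluster against Drd1+ neurons with the mouse as a block. Genes entered on the counts of either cluster, so the share called depends on depth and cannot be compared between clusters. Drd2+ neurons differed from Drd1+ neurons in 83 of 13791 genes (0.602%). Sorl1, a sorting receptor for the amyloid precursor protein, had 76.2, 65.2, 56.7 and 59 CPM in Drd2+ neurons against 58.8, 100.1 and 167, and 112, 97.3, 119.6 and 92.7 CPM in Drd1+ neurons against 64.3, 93.3 and 138. WSB/EiJ was thus low in one neuron type and near the median in the other, a difference of -0.84 ± 0.08 on the log2 scale (adjusted p = 1.7e-15). Onecut2, a transcription factor, was lower in Drd2+ neurons (-0.59 ± 0.13) and higher in Drd1+ neurons (0.34 ± 0.09), a difference of -0.91 ± 0.10 (adjusted p = 2.1e-12). Tll1, a metalloprotease, was higher in Drd1+ neurons (0.78 ± 0.19) and not called in Drd2+ neurons (-0.26 ± 0.17), with a difference of -1.01 ± 0.11 (adjusted p = 3.74e-12). Ncam2, an adhesion molecule, had a small difference of 0.36 ± 0.04 (adjusted p = 5.47e-13). The count was 11 at a difference of at least 2-fold, 38 without batch 2 and 49 without batch 4, and 8 without the mouse as a block, where Tll1 (adjusted p = 0.249) and Ncam2 (adjusted p = 0.12) were no longer called. In Drd1+ neurons alone, calls lost in single other fits were those of Onecut2 (0.0536 without batch 3) and Tll1 (0.0583 without batch 3, 0.0646 without batch 4). Taking the 28 mice as 1 group also ended the calls within 1 cluster of Onecut2 in both neuron types (adjusted p = 0.349 in Drd1+ and 0.35 in Drd2+ neurons), of Tll1 in Drd1+ neurons (0.101) and of Ncam2 in Drd2+ neurons (0.679).

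Oligodendrocytes differed from Drd1+ neurons in 606 of 13943 genes (4.35%). Spock1, a testican of the matrix, had 5.97, 5.45, 10.6 and 14.98 CPM in oligodendrocytes against 4.99, 556 and 2771, and 224, 236, 277 and 209 CPM in Drd1+ neurons against 160.3, 241 and 394. Its difference between clusters was -5.28 ± 0.23 (adjusted p = 3.26e-44); CAST/EiJ, with a mean of 10.9 CPM, was as low in oligodendrocytes. Nbas, low in oligodendrocytes, had 114, 97.3, 91.7 and 106 CPM in Drd1+ neurons against 79.6, 95.7 and 125, a difference between clusters of -2.70 ± 0.12 (adjusted p = 7.99e-42). Tmem117 was lower in oligodendrocytes and slightly higher in Drd1+ neurons (0.37 ± 0.07), a difference of -1.99 ± 0.12 (adjusted p = 3.03e-31). Cntn3, a contactin, had 262, 174, 189 and 159.8 CPM in oligodendrocytes against 0, 15.4 and 393 and no call in Drd1+ neurons (0.08 ± 0.11), a difference of 2.74 ± 0.16 (adjusted p = 1.48e-30). WSB/EiJ was the fourth highest of the 8 strains for Cntn3 in oligodendrocytes, where the median of the other mice was 15.4 CPM. Within oligodendrocytes the Cntn3 call was lost with the 28 mice as 1 group (0.54 on the log2 scale, adjusted p = 0.901). Without batch 4, 390 genes were called.

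Astrocytes differed from Drd1+ neurons in 236 of 14301 genes (1.65%). Psat1, an enzyme of serine synthesis, had 83.02, 118, 77.2 and 100.5 CPM in astrocytes against 64.9, 87.4 and 172, so WSB/EiJ lay inside the range, but 85.7, 77.2, 103 and 98.97 CPM in Drd1+ neurons against 7.79, 13.4 and 81.7. The difference was -2.15 ± 0.17 (adjusted p = 1.06e-21), and NOD/ShiLtJ had a similar neuronal mean of 74.8 CPM. Igsf21, a synaptic adhesion gene, was lower in Drd1+ neurons, with 2.81, 5.96, 5.03 and 3.12 CPM against 5.59, 26.3 and 42.4, and higher in astrocytes (0.72 ± 0.17), a difference of 3.00 ± 0.28 (adjusted p = 2.13e-17). Eya1, a transcriptional coactivator and phosphatase, went the opposite way, with 22.6, 9.67, 51.4 and 23.9 CPM in astrocytes against 47.3, 104 and 215 and a rise in Drd1+ neurons (0.58 ± 0.15), a difference of -2.79 ± 0.27 (adjusted p = 1.45e-14). Syt10 was higher in both, by far more in astrocytes, a difference of 4.22 ± 0.43 (adjusted p = 9.38e-15). Calls within 1 cluster that were lost without single batches were those of Igsf21 (0.105 without batch 1, 0.0746 without batch 2) in astrocytes and Syt10 (0.112 without batch 2, 0.0568 without batch 4) in Drd1+ neurons. Those lost with the 28 mice as 1 group were Psat1 (adjusted p = 0.156), Eya1 (0.698) and Syt10 (0.119) in Drd1+ neurons and Igsf21 in astrocytes (0.0973).

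Macrophages differed from Drd1+ neurons in 157 of 14489 genes (1.08%). Only 3858 genes were tested in macrophages alone, so most of the 14489 had few macrophage counts. Fbxl7 was high in macrophages as given above and low in Drd1+ neurons, with 2.34, 1.88, 2.23 and 1.74 CPM against 1.71, 4.803 and 47.5, a difference of 7.35 ± 0.43 (adjusted p = 2.25e-62). Slco5a1, of the organic anion transporter family, had 66.6, 119, 78.8 and 97.6 CPM in macrophages of WSB/EiJ, from 39 counts, whereas 22 of the 28 other mice had 0 and the highest had 16.6 CPM; these values are over the unscaled library total. In Drd1+ neurons it was not called (0.29 ± 0.12), and the difference was 6.08 ± 0.61 (adjusted p = 1.34e-19). Col15a1 was higher in Drd1+ neurons but not called in macrophages, with 41.05, 58.98, 114 and 24.7 CPM against 10.9, 52.5 and 143 there, a difference of -4.20 ± 0.44 (adjusted p = 2.91e-18). Abi3bp, a matrix gene, was higher in macrophages, with 154, 118, 146 and 111 CPM against 0, 0 and 371, and not in Drd1+ neurons (-0.09 ± 0.24), a difference of 4.25 ± 0.46 (adjusted p = 6.26e-17). CAST/EiJ exceeded WSB/EiJ for Abi3bp, with a mean of 309 CPM. The macrophage call of Abi3bp (1.89 on the log2 scale, adjusted p = 0.567) and the Drd1+ neuron call of Fbxl7 (adjusted p = 0.249) were lost with the 28 mice as 1 group. Leaving out single batches left 78 (batch 4), 86 (batch 1) and 97 (batches 2 and 3) calls.

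**Figure D5:**
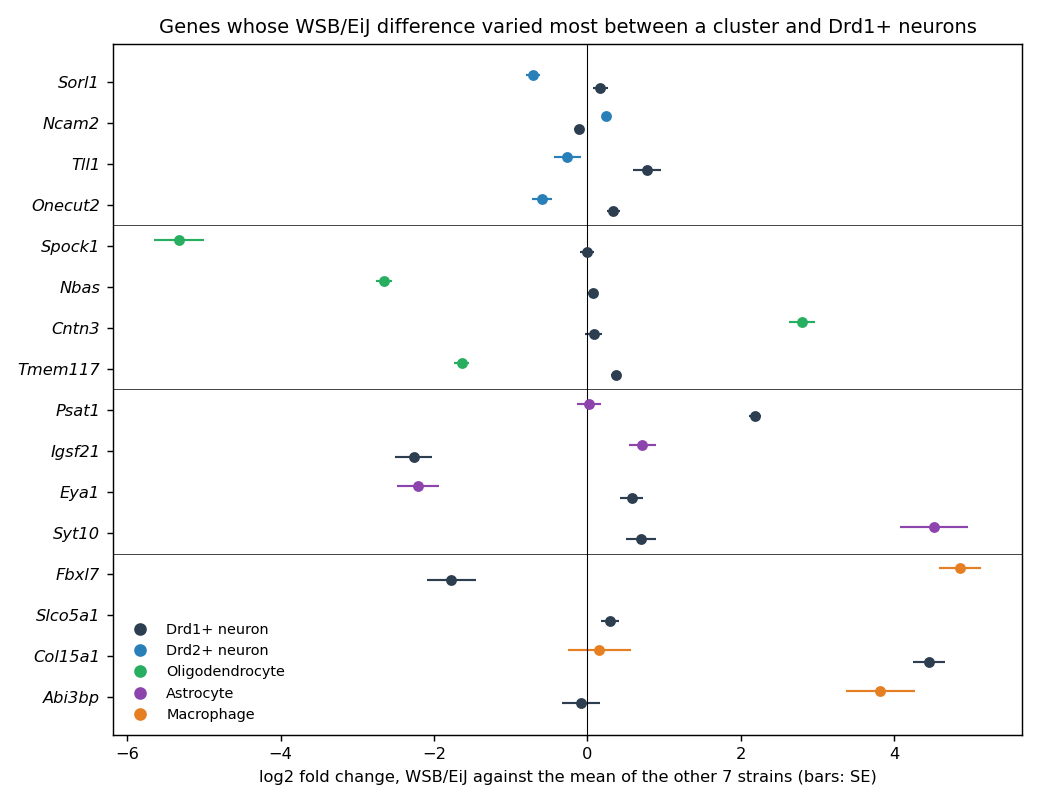
log2 fold change of WSB/EiJ against the mean of the other 7 strains (points, with SE bars) in Drd1+ neurons (dark) and in the cluster compared with them (blue Drd2+ neurons, green oligodendrocytes, purple astrocytes, orange macrophages), for the 4 genes with the largest F statistic of each interaction test. The 2 points of a gene lie apart, most for Fbxl7 and Spock1; Slco5a1 has no macrophage point because it was not tested in the fit of macrophages alone.

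The numbers of nuclei gave no call. WSB/EiJ shares of a mouse's nuclei were 29.9, 26.0, 25.5 and 26.4% for Drd1+ neurons and 28.8, 25.6, 24.0 and 26.0% for Drd2+ neurons. Oligodendrocytes made up 18.9, 17.1, 24.4 and 20.9%, astrocytes 9.13, 10.5, 8.54 and 11.5%, and macrophages 3.96, 4.71, 4.83 and 3.99%. Differences of the mean log2 share from the other strains were -0.03, 0.15, -0.06, 0.35 and -0.09 in that order, and all overlapped the other mice. In exact two-sided permutation tests within batches (4096 arrangements, smallest possible p = 0.000244) the adjusted p was 0.794, 0.169, 0.794, 0.169 and 0.794. Median UMIs per nucleus were not called either, with adjusted p from 0.355 to 0.589. Shares are relative, so fewer nuclei of one type and more of the others cannot be told apart.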

How the data were processed

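The deposited matrices hold raw UMI counts per gene and barcode for 4 pooled libraries, with no normalization. Per the submitters' processing notes, reads were processed with bcl2fastq 2.20.0.422 and Cell Ranger ARC 2.0.0 on mm10, so reads of all strains were counted against 1 reference. Per the deposited description, the authors assigned strains with Demuxlet from RNA and ATAC reads, kept nuclei with 200 to 7500 genes and under 15% mitochondrial counts, took out doublets found by DoubletFinder, dropped more nuclei for lack of biological relevance, and named the clusters. These calls were used unchanged, and no further filter or doublet caller was run.

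Counts were summed per mouse and cluster. After filterByExpr by strain and TMM scaling, edgeR 4.0.16 (R 4.3.3) fitted a robust quasi-likelihood model with terms for strain and batch, and tested the contrast of WSB/EiJ minus the mean of the 7 other strains. That filter keeps a gene with enough counts in as few libraries as 1 strain has. Genes low in all other mice, such as Olr1 and Gm13727 in neurons and Syt10, Plpp4 and Gm20300 in astrocytes, entered through the WSB/EiJ libraries. Their adjusted p is thus not independent of that entry. The same may hold for other genes with low values in the other mice, among them Col15a1 in both neuron clusters and Cnmd in Drd2+ neurons. Interactions had the mouse as a block. Batch is a block because the labels say that its mice were pooled and loaded together, which pairs them. Shares and median UMIs were compared by exact permutation within batches in Python 3.11.15 (numpy 2.4.6, scipy 1.17.1), with 0.5 nuclei added before the log2 share. Alternatives were DESeq2 1.42.0 and its size factors, no gene filter, no block, the 28 mice as 1 group, a 2-fold minimum, equal totals and single batches left out.

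Named genes were those called, at 10 CPM or more on the higher side, with the 4 WSB/EiJ mice outside the range of the other 28, by fold change (8 and 3 per direction with established and provisional symbols in Drd1+ neurons, 5 and 1 elsewhere); up to 4 called members per direction of 16 gene lists; and the 4 leading genes of each interaction. Some list members that this rule chose are not reported here. The comparison, lists and rules were chosen with earlier results of these data known. Promoters and positions are from RefSeq tables of GRCm38.p6. The fits were tested on simulated counts; the share of false calls was above the threshold in oligodendrocytes, in Drd2+ neurons and in the interaction of Drd2+ neurons.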

Additional observations from a re-analysis of the deposited data

Results flagged for a closer look

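The WSB/EiJ difference of 16 genes differed between a cluster and Drd1+ neurons by the test of the interaction itself, in log2 units: Sorl1 by -0.84, Ncam2 by 0.36, Tll1 by -1.01 and Onecut2 by -0.91 in Drd2+ neurons; Spock1 by -5.28, Nbas by -2.70, Cntn3 by 2.74 and Tmem117 by -1.99 in oligodendrocytes. In astrocytes the differences were -2.15 for Psat1, 3.00 for Igsf21, -2.79 for Eya1 and 4.22 for Syt10. In macrophages they were 7.35 for Fbxl7, 6.08 for Slco5a1, -4.20 for Col15a1 and 4.25 for Abi3bp.

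One WSB/EiJ mouse stood apart from the other 3 in 7 of 111 groups of 4 values tested; chance flags about 1 in 20 such groups. Batch 1 had the high Fbxl7 value in macrophages, 718 CPM, and batch 2 the high Npat value in oligodendrocytes, 70.9 CPM. Batch 3 had the high Pdyn value in Drd1+ neurons, 59.8 CPM, and batch 4 the low Tmem181a value in Drd2+ neurons, 13.2 CPM. The WSB/EiJ mouse of batch 3 also had the lowest median UMIs per nucleus in Drd2+ neurons, 4300.5, and in astrocytes, 1559, and the fewest astrocytes, 122 nuclei. The other strains were also low in batch 3: in Drd2+ neurons their libraries held 4424 to 5215 counts per nucleus there, with 4602 in WSB/EiJ, and 5654 to 7461 in the other batches. In astrocytes the median of the other strains was 1923 counts per nucleus in batch 3, with 1718 in WSB/EiJ, and 2342 to 2557 in the other batches. Astrocyte nuclei of the other strains in batch 3 numbered from 23 in CAST/EiJ to 127 in NZO/HlLtJ, so 122 was near the top of that batch.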

How the results depend on the processing

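The numbers of called genes, 2277, 1959, 921, 269 and 239 in Drd1+ neurons, Drd2+ neurons, oligodendrocytes, astrocytes and macrophages, became 415, 337, 227, 112 and 92 with a 2-fold minimum. They became 329, 377, 190, 56 and 30 with the 28 mice as 1 group, which counts spread between strains as error, and 9, 11, 50, 18 and 57 with every library thinned to 27325 counts, where depth is the limit by construction. Leaving out 1 batch gave 1458 to 1874, 1298 to 1657, 601 to 778, 159 to 269 and 144 to 183. For the interactions, a 2-fold minimum left 11 genes in Drd2+ neurons, 287 in oligodendrocytes and 133 in astrocytes. Leaving out 1 batch gave 38 to 61 in Drd2+ neurons, 390 to 509 in oligodendrocytes and 78 to 97 in macrophages. Without the replicate block, the interaction in Drd2+ neurons fell from 83 to 8 genes; the fits of the 5 clusters without the batch block gave 1657, 1472, 678, 234 and 195 calls. DESeq2 called 2031, 1670, 787, 230 and 191 genes. Of 259 calls of named genes, DESeq2 lost 16, the fit without the block 43, the 28 mice as 1 group 166 and single batches left out 37 to 56, and 0 of the 259 reversed direction in these fits; other called genes were not followed. The cause of these losses was not tested. Macrophage libraries hold the fewest counts, and every comparison rests on 4 mice per strain.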

Other observations

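Genes known to respond to glucocorticoids were read as a group after Fkbp5, Zbtb16 and Hif3a had been seen among the called genes of oligodendrocytes, so the following is a description. Of 20 tested genes of that list, 9 were called higher in WSB/EiJ oligodendrocytes and 1 lower, against 5.86% and 4.28% of all genes, with a median log2 fold change of 0.47 against 0.00 over all genes. The higher ones were Fkbp5, Zbtb16, Hif3a, Sgk1, Tsc22d3, Per1, Ddit4, Nfkbia and Pdk4, and Glul was lower. Fkbp5, Zbtb16 and Hif3a, which prompted the list, are within this count and median, so neither is independent of that choice. Fkbp5, a chaperone that dampens the glucocorticoid receptor, had 49.2, 76.3, 366 and 311 CPM in WSB/EiJ, and the other mice of the same batches had medians of 29.9, 41.2, 28.4 and 31.6 CPM. Zbtb16, a zinc finger transcription factor, had 139, 242, 1243 and 856 CPM, against batch medians of 173, 148, 127 and 61.9 CPM. The WSB/EiJ mice of batches 3 and 4 exceeded every other mouse of their batch in both genes, and those of batches 1 and 2 did not. Without batch 3, 6 of the 9 higher genes were no longer called by edgeR: Zbtb16 (adjusted p = 0.109), Hif3a (0.287), Ddit4 (0.0813), Nfkbia (0.124), Tsc22d3 (0.466) and Per1 (0.0546). Without batch 4, Hif3a (0.0781), Nfkbia (0.0738), Tsc22d3 (0.131), Per1 (0.227) and Glul (0.0639) were not called, and without batch 2 Hif3a (0.0535), Per1 (0.321) and Glul (0.196). Without the batch block Tsc22d3 (0.0742) and Glul (0.0902) were not called. The 9 higher genes and Glul lost their calls with the 28 mice as 1 group, with adjusted p from 0.0894 for Fkbp5 to 0.599 for Hif3a. Fkbp5 in macrophages had 267, 452, 1947 and 1074 CPM, against 52.6, 266 and 1137 CPM as lowest, median and highest of the other mice; its call was lost without batch 3 (adjusted p = 0.22), without batch 4 (0.146) and with the 28 mice as 1 group (0.264). In astrocytes 3 of 19 tested genes were higher and 0 lower, in macrophages 3 of 8 and 0, in Drd1+ neurons 1 and 2 of 18, and in Drd2+ neurons 1 and 1 of 16. Over all genes 1.95% and 1.33% were called in astrocytes, 4.20% and 2.00% in macrophages, 9.66% and 7.30% in Drd1+ neurons, and 8.54% and 6.77% in Drd2+ neurons. The 3 astrocyte calls were lost with the 28 mice as 1 group (Zbtb16 0.229, Tsc22d3 0.214, Per1 0.0669) and without batch 4 (0.392, 0.329 and 0.0625). They were lost too without batch 2 (0.0521, 0.133 and 0.177), and without batch 3 for Zbtb16 (0.27) and Per1 (0.17). In macrophages the call of Rhob was lost by DESeq2 (0.0978), without the batch block (0.0903), with the 28 mice as 1 group (0.222) and without batch 1 (0.157), batch 2 (0.127) or batch 3 (0.334). The neuronal calls were also lost with the 28 mice as 1 group, those of Sgk1 (0.0984) and Dusp1 (0.221) in Drd1+ neurons and of Sgk1 (0.196) and Nr3c2 (0.274) in Drd2+ neurons among them; Nr3c2 was also lost without batch 2 (0.225), batch 3 (0.0835) or batch 4 (0.255) and without the batch block (0.239), and Dusp1 without batch 1 (0.191) or batch 2 (0.137). The receptor gene Nr3c1 was lower in Drd1+ neurons, with 117, 79.1, 73.2 and 70.5 CPM against 71.3, 100.4 and 141 CPM. The WSB/EiJ mouse of batch 1 lay above 6 of the 7 others of its batch, and the call was lost without batch 2 (adjusted p = 0.278), batch 3 (0.0764) or batch 4 (0.226), without the batch block (0.146) and with the 28 mice as 1 group (0.253).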
